A study of Mus musculus with 8 samples.

Results

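The cyclins and kinases that carry a cell from G1 into S phase, with their inhibitors and the retinoblastoma protein that they act on, were examined in whole 4T1.13 mammary tumours with and without knockdown of miR-21. The set was chosen by name, as the rows of 10 genes (Ccnd1, Ccnd2, Ccnd3, Cdk4, Cdk6, Cdkn1b, Cdkn2a, Cdkn2c, Ccne1 and Rb1) out of 27179 in the table of counts, with no threshold on a measured value. RNA sequencing covered 8 tumours, 4 of the group 4T1.13-VC (vector control) and 4 of the group 4T1.13-miR-21-KD. 4T1.13 is a metastatic mammary carcinoma line of BALB/c origin. Both lines carried the miArrest lentiviral backbone with its mCherry reporter and hygromycin resistance gene. In the miR-21-KD line this vector expressed, from an H1 promoter, a transcript made to sequester the mature miRNA, and the VC line had a scrambled sequence in that place. Each line was a pool of single-cell clones, so the groups compare a pair of pools. Every tumour grew from 100000 cells placed in the mammary fat pad of a BALB/c mouse and was labelled as recovered on day 14 with regression of miR-21-KD tumours starting, whereas the study's methods place that recovery, at the start of regression, on an earlier day. The mice were female and were young adults when inoculated, according to the same methods.

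Cyclin D1, D2 and D3 (Ccnd1, Ccnd2, Ccnd3) activate the kinases CDK4 and CDK6 in response to growth signals, and the active kinases phosphorylate RB (Rb1). Phosphorylated RB releases E2F factors, which turn on cyclin E1 (Ccne1), the partner of CDK2, and the genes of DNA replication. INK4 proteins such as p16 (Cdkn2a) and p18 (Cdkn2c) bind CDK4 and CDK6, whereas p27 (Cdkn1b) binds cyclin-CDK complexes. Cyclin D1 is a known driver in mammary carcinoma, and cyclins D2 and D3 are prominent in lymphoid and other blood cells.

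Between 12134849 and 13592695 reads per VC tumour and between 12550898 and 12783800 per miR-21-KD tumour were counted on genes, so depth was alike. Values below are counts given as CPM, relative to the size of each library, scaled with the TMM factors of edgeR, and differences are miR-21-KD against VC, tested with edgeR's quasi-likelihood test and Benjamini-Hochberg adjustment over 14382 genes with a threshold of 0.05. Labels do not say that the tumours came from separate mice, so p-values measure the spread between these samples. The sequestering RNA acts on mature miR-21, which a table of gene counts does not measure. Its precursor gene Mir21a had 0 counts in all 8 tumours, and Vmp1, which overlaps it, differed by 0.04 on the log2 scale (edgeR adjusted p = 0.704). VC replicate 4 and miR-21-KD replicate 2 stood nearest to the other group in Ccnd1 and in the summed level of mitosis genes. Some, but not all, of the results that rest on them are also given without them.

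The mature miR-21 of the mouse is shown because its seed, bases 2 to 8 from the 5′ end and here in capitals, sets which transcripts carry a matching site. It is encoded at chr11:86584120-86584141 on the minus strand (RefSeq, GRCm38.p6).
mmu-miR-21a-5p: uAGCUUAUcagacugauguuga
The DNA letters that pair with this seed, ATAAGCT, were found in the annotated 3′ UTR of 2 of the 10 genes, Cdk6 and Cdkn1b, against 7.56% of 21004 protein-coding genes. Both windows, of 30 bases each, are given on the plus strand with the matching letters in capitals, at chr5:3528612-3528641 for Cdk6 and at chr6:134923168-134923197 for Cdkn1b (GRCm38.p6).
Cdk6: tgatgcccccaaATAAGCTgcctgcgtttt
Cdkn1b: ttataatagtttATAAGCTccttatgaaga
A match is a description of these letters and not a tested site. Neither gene passed the test, with log2 fold changes of -0.30 for Cdk6 and -0.15 for Cdkn1b.

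All 10 genes passed the filter on low counts. In miR-21-KD tumours 3 were lower past the threshold (Ccnd1, Cdk4 and Cdkn2c), 1 was higher (Ccnd3) and 6 did not pass. Of the genes tested, 39.1% passed in either direction, 19.5% lower and 19.6% higher, so that 4 of 10 is close to the background. The groups did not overlap in the same 4 genes, and they did not overlap in 35.2% of all tested genes. The 10 genes had a median log2 fold change of -0.22, beside -0.01 for every gene tested. In these bulk tumours, fewer cells of a type and less RNA per cell cannot be told apart.

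**Figure D1:**
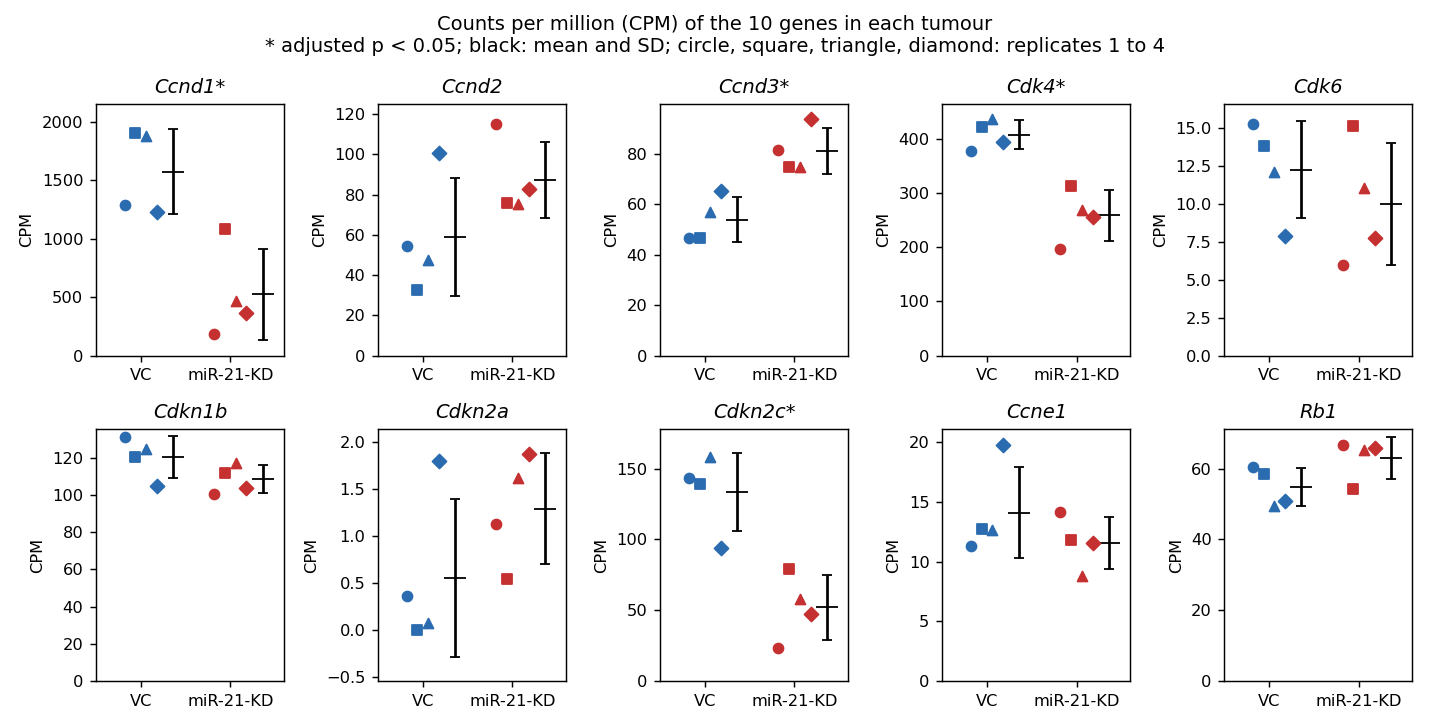
CPM of each of the 10 genes (vertical axes, each with its own scale) in the 4 VC (blue) and 4 miR-21-KD (red) tumours; black marks give the mean and SD, and an asterisk an adjusted p under the threshold. The groups are apart for Ccnd1, Ccnd3, Cdk4 and Cdkn2c, with miR-21-KD replicate 2 (red square) the closest to VC for Ccnd1, Cdk4 and Cdkn2c.

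Ccnd1 (Entrez 12443, chr7:144929931-144939831, GRCm38.p6), the D cyclin most often amplified or over-produced in breast carcinoma, fell and had the lowest log2 fold change of the 10 genes. Its level was 1294, 1905, 1877 and 1225 CPM in VC replicates 1 to 4, and 183.6, 1082, 470.5 and 367.4 CPM in miR-21-KD replicates 1 to 4. Every miR-21-KD tumour lay below every VC tumour, and miR-21-KD replicate 2 came near the lowest VC value. The means were 1575 ± 366 and 526 ± 389 CPM (n = 4 each, SD), a 3.0-fold lower level (log2 fold change -1.58, standard error (SE) 0.48, edgeR adjusted p = 0.0309). The spread was wide among miR-21-KD tumours, whose highest value was 5.89 times the lowest, against 1.55 times in VC. This call was lost without VC replicate 2 (adjusted p = 0.0731), VC replicate 3 (0.0757), miR-21-KD replicate 3 (0.0759) or miR-21-KD replicate 4 (0.0836), and it held in the other 4 fits with a tumour left out, with log2 fold changes between -2.22 and -1.30 over all 8.

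Ccnd3 (Entrez 12445, chr17:47505051-47599689) moved the other way. Its level was 46.7, 46.8, 56.8 and 65.2 CPM in VC and 81.6, 74.8, 74.6 and 94.0 CPM in miR-21-KD tumours. All miR-21-KD values lay above the highest VC value, that of VC replicate 4. The rise from 53.9 ± 8.95 to 81.2 ± 9.12 CPM (n = 4 each, SD) was 1.51-fold (log2 fold change 0.59, SE 0.13, edgeR adjusted p = 0.0121), and the call held with each tumour left out.

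Ccnd2 (Entrez 12444, chr6:127125162-127152188) had 54.7, 32.6, 47.3 and 100.6 CPM in VC and 115, 75.8, 75.2 and 82.8 CPM in miR-21-KD tumours. VC replicate 4 lay above 3 of the miR-21-KD tumours, so the groups overlapped. The difference did not pass the test (log2 fold change 0.57, SE 0.32, edgeR adjusted p = 0.177). Without VC replicate 4 it did, at 0.95 on the log2 scale (edgeR adjusted p = 0.0156 with that tumour left out). Without VC replicate 2 it was 0.36 and did not pass (edgeR adjusted p = 0.348).

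Levels of different genes were compared after division by the exon length of their protein-coding transcripts. On this scale (CPM per kb) Ccnd1 made up 93.3%, 95.9%, 94.8% and 89.5% of the summed D cyclin level in VC replicates 1 to 4. In miR-21-KD replicates 1 to 4 its share was 51.4%, 88.3%, 76.8% and 68.0%. All miR-21-KD shares lay below all VC shares, although replicate 2 was close to the lowest of VC. Ccnd3 held a mean share of 4.50% ± 1.40 in VC against 19.7% ± 9.65 in miR-21-KD tumours (n = 4 each, SD), and Ccnd2 held 2.12% ± 1.41 and 9.15% ± 6.17. The share of Ccnd3 depended on the transcripts that define its length. With exons of all annotated transcripts, a choice made after seeing the data, it was 1.85% ± 0.595 in VC against 9.28% ± 5.09 in miR-21-KD tumours, and the shares of Ccnd1, 93.5% to 97.9% in VC and 64.4% to 93.3% in miR-21-KD tumours, were still apart. Ccnd1 was still the most abundant D cyclin in all 8 tumours. The sum of the 3 levels ran from 366.1 to 531.1 CPM per kb in VC and from 95.6 to 327.5 in miR-21-KD tumours.

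**Figure D2:**
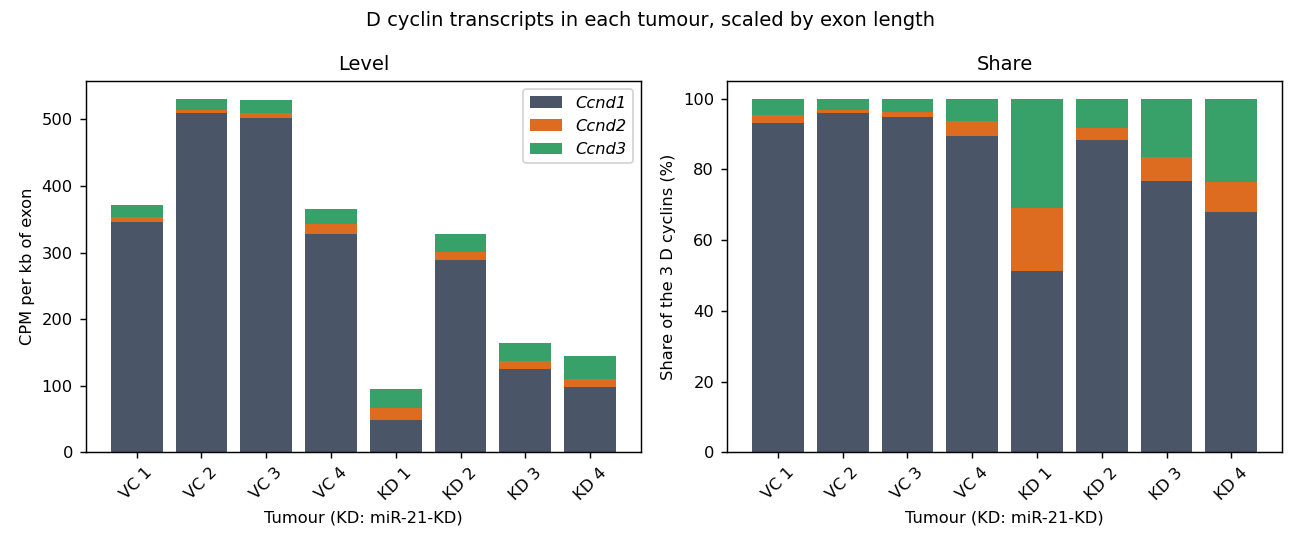
Levels of the D cyclin transcripts in CPM per kb of exon (left) and their shares of the summed level in percent (right), as stacked bars for each tumour. Ccnd1 fills most of each VC bar and 51.4% to 88.3% of the miR-21-KD bars, with the lowest share in miR-21-KD replicate 1.

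The log2 ratio of Ccnd1 to Ccnd3 CPM was 4.78, 5.33, 5.03 and 4.22 in VC and 1.17, 3.85, 2.65 and 1.96 in miR-21-KD tumours. These ranges did not overlap, and the group means differed by -2.44. The log2 ratio of Ccnd1 to Ccnd2 differed by -2.50, with miR-21-KD replicate 2 (3.83) above VC replicate 4 (3.60). The ratios were not tested.

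Cdk4 (Entrez 12567, chr10:127063535-127067288), the kinase partner of the D cyclins, had 377.9, 422.1, 435.9 and 393.7 CPM in VC and 196.2, 312.2, 269.0 and 256.0 CPM in miR-21-KD tumours. No miR-21-KD tumour reached the lowest VC value, and replicate 2 was again the highest of its group. The level fell from 407 ± 26.4 to 258 ± 47.9 CPM (n = 4 each, SD), a log2 fold change of -0.66 (SE 0.14, edgeR adjusted p = 0.0106). This was the smallest adjusted p among the 10 genes, and the call held with each tumour left out.

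Cdk6 (Entrez 12571, chr5:3341004-3531008), the other D cyclin kinase, had 15.3, 13.8, 12.1 and 7.85 CPM in VC and 5.98, 15.1, 11.04 and 7.75 CPM in miR-21-KD tumours. The groups overlapped, and the log2 fold change of -0.30 (SE 0.31) did not pass (edgeR adjusted p = 0.469). It was -0.57 without miR-21-KD replicate 2 and -0.12 without miR-21-KD replicate 1, and passed in neither case. The difference between the Cdk4 and Cdk6 responses was not tested. Per kb of exon, Cdk4 stood at 169.4 ± 10.96 in VC against 107 ± 19.9 in miR-21-KD tumours, and Cdk6 at 1.04 ± 0.272 and 0.843 ± 0.339 (CPM per kb, SD, n = 4 each).

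The promoters of the 2 lower genes found in the RefSeq promoter table are given for the letters they hold, from 250 bases before to 50 after the annotated start and in the direction of the gene, with E boxes (CACGTG, the same on both strands) in capitals. The Cdk4 window lies at chr10:127063285-127063584 on the plus strand, and the table holds 2 Cdkn2c windows on the minus strand, at an internal start, chr4:109665323-109665622, and at the start of the gene as annotated, chr4:109666707-109667006 (GRCm38.p6).
Cdk4: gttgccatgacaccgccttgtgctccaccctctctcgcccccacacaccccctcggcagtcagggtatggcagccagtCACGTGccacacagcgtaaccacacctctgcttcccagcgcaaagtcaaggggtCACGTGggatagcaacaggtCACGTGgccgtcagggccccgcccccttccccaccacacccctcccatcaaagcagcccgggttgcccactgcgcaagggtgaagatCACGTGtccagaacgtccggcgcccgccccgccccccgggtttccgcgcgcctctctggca
Cdkn2c, internal start: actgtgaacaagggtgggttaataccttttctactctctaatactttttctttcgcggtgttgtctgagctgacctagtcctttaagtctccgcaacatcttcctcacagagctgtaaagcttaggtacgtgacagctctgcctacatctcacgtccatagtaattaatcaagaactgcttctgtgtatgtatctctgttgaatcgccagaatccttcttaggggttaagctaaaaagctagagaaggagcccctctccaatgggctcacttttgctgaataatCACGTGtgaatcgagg
Cdkn2c, start of the gene: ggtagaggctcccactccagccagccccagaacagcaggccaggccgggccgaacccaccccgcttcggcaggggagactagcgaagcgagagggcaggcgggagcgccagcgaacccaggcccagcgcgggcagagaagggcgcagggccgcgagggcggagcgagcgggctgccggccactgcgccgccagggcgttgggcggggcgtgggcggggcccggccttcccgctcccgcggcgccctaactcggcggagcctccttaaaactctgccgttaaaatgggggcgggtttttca
The Cdk4 window held 4 E boxes, with first bases at -172, -118, -98 and -11 relative to the annotated start, and the internal Cdkn2c window held 1, at 34. The window at the start of the Cdkn2c gene held 0 E boxes and 4 GC boxes. Among the genes that did not pass, Cdk6 had an E box at -220. Of 32851 promoter windows of this length, 7.15% held an E box. A simplified E2F motif (TTTNNCGC, searched on both strands) was in none of the shown windows, in the window of Cdk6 at -198, in both windows of Cdkn2a and in 5.17% of all windows. The GC box GGGCGG, searched on both strands with no overlap with the E boxes in these windows, was found 3 times at Cdk4 and in 35.7% of all windows. It was also found 2 times in each Ccnd3 window, 4 times at Ccne1, 1 time at Cdkn1b, 1 and 3 times in the Cdkn2a windows, and 0 times at Cdk6. Neither window of Ccnd3, the gene that rose, held an E box or the E2F motif, and the same was true of the windows of Cdkn1b and Ccne1, which did not pass. Windows were found for 7 of the 10 genes, and those of Ccnd1, Ccnd2 and Rb1 were not used here. MYC is a known binder of E boxes, and Myc transcripts had a log2 fold change of -0.15 (edgeR adjusted p = 0.579).

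Among the inhibitors, Cdkn2c (Entrez 12580, chr4:109660876-109666756), which encodes p18, fell. It had 143.5, 139.1, 158.0 and 93.8 CPM in VC and 23.0, 78.8, 58.1 and 47.6 CPM in miR-21-KD tumours. All miR-21-KD tumours lay below the lowest VC tumour, replicate 4. The mean went from 134 ± 27.8 to 51.9 ± 23.2 CPM (n = 4 each, SD), a 2.58-fold lower level (log2 fold change -1.36, SE 0.33, edgeR adjusted p = 0.0155), and the call held with each tumour left out.

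Cdkn1b (Entrez 12576, chr6:134920401-134925525), which encodes p27, varied little. It had 131.5, 120.8, 124.9 and 104.9 CPM in VC and 100.6, 112.0, 117.4 and 104.1 CPM in miR-21-KD tumours. The ranges overlapped, and the log2 fold change of -0.15 (SE 0.09) did not pass (edgeR adjusted p = 0.217). Relative to Cdk4 its level was nevertheless higher in every miR-21-KD tumour. The log2 ratio of Cdkn1b to Cdk4 was -1.52, -1.80, -1.80 and -1.90 in VC and -0.96, -1.47, -1.19 and -1.29 in miR-21-KD tumours, a difference of 0.53 that was not tested.

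Cdkn2a (Entrez 12578, chr4:89274473-89294619), which encodes p16 and, in another reading frame, ARF, was close to the detection limit. Its counts were 5, 0, 1 and 22 in VC and 14, 7, 20 and 24 in miR-21-KD tumours. A count of 0 allows up to 3 counts, or 0.221 to 0.245 CPM depending on the tumour, for counting error only. The difference was not past the threshold (log2 fold change 1.21, SE 0.91, edgeR adjusted p = 0.310). Without VC replicate 4 it was larger and passed, at 2.99 (edgeR adjusted p = 0.0237 with that tumour left out). Without VC replicate 2 it was smaller, at 0.79 (edgeR adjusted p = 0.482). Counts per gene do not separate its 2 products.

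Ccne1 (Entrez 12447, chr7:38097984-38107490), which drives CDK2 after the D cyclins, had 11.3, 12.8, 12.6 and 19.8 CPM in VC and 14.2, 11.8, 8.77 and 11.6 CPM in miR-21-KD tumours. The groups overlapped and the log2 fold change was -0.29 (SE 0.22, edgeR adjusted p = 0.313), or -0.085 without VC replicate 4. Its paralogue Ccne2 had a log2 fold change of -0.34 (edgeR adjusted p = 0.265, and 0.0324 without miR-21-KD replicate 2), and the ratio of Ccne1 to Ccne2 differed by 0.08 on the log2 scale.

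Rb1 (Entrez 19645, chr14:73192858-73325951) had 60.5, 58.5, 49.6 and 50.8 CPM in VC and 66.6, 54.2, 65.3 and 65.9 CPM in miR-21-KD tumours. All miR-21-KD tumours except replicate 2 lay above the VC range. The difference was 0.20 on the log2 scale (SE 0.10, edgeR adjusted p = 0.145), and without miR-21-KD replicate 2 it was 0.26 (edgeR adjusted p = 0.0490 with that tumour left out).

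**Figure D3:**
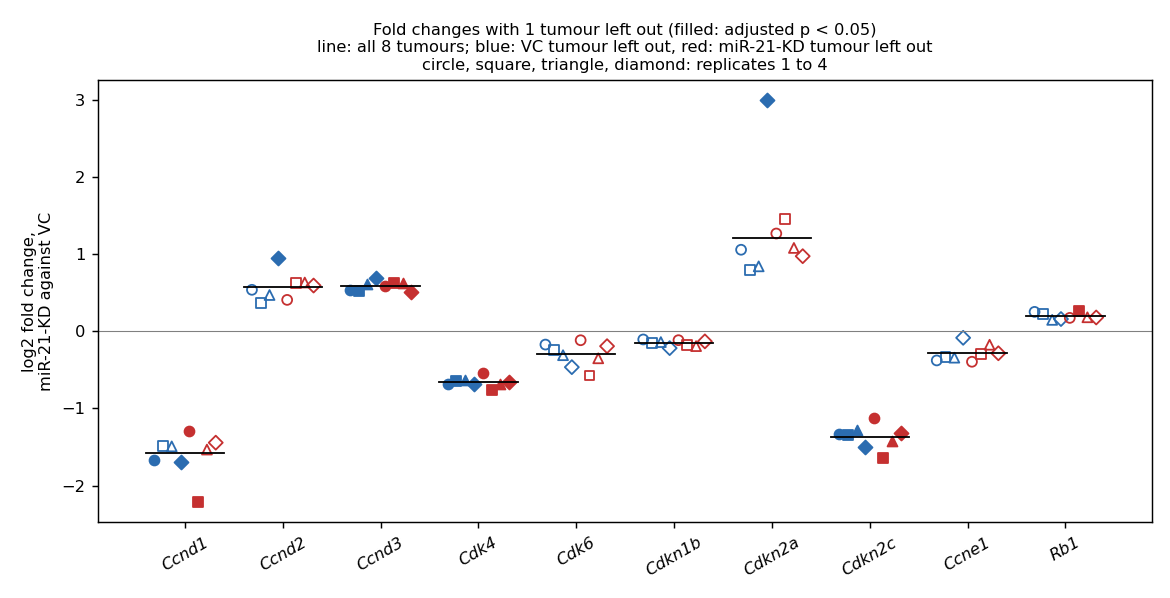
Log2 fold change of each gene (vertical axis) with each of the 8 tumours left out in turn; filled symbols have an adjusted p under the threshold, and black lines give the value with all tumours. Ccnd3, Cdk4 and Cdkn2c stay filled throughout, Ccnd1 is filled in 4 of 8, and Ccnd2, Cdkn2a and Rb1 are each filled once.

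Ordered by level per kb of exon, the VC tumours had Ccnd1 first, at 421 ± 97.8 CPM per kb (SD, n = 4), followed by Cdk4, Cdkn2c, Cdkn1b, Ccnd3, Rb1, Ccnd2, Ccne1, Cdk6 and Cdkn2a. Ranges over the 4 tumours overlapped between the neighbours Cdkn1b and Ccnd3, Rb1 and Ccnd2, Ccnd2 and Ccne1, and Cdk6 and Cdkn2a. In miR-21-KD tumours Ccnd1 was also first by its mean, at 141 ± 104 CPM per kb (SD, n = 4), but its range overlapped that of Cdk4. There Ccnd3 ranked above Cdkn1b and Cdkn2c, which were followed by Rb1, Ccnd2, Ccne1, Cdkn2a and Cdk6. Overlapping neighbours after Cdk4 were Cdkn1b and Cdkn2c, Cdkn2c and Rb1, Rb1 and Ccnd2, and Cdkn2a and Cdk6. With exons of all annotated transcripts Ccnd3 ranked below Rb1 in both groups. The level of Ccnd1 per kb, divided by that of Cdk4, was 2.0 to 2.90 in VC tumours and 0.602, 2.23, 1.12 and 0.923 in miR-21-KD replicates 1 to 4, so Cdk4 exceeded Ccnd1 in replicates 1 and 4.

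The rest of the G1/S machinery was read from a list of 26 further genes, all of which were tested. In miR-21-KD tumours 9 were lower, 4 were higher and 13 did not pass, beside 19.5% lower and 19.6% higher over all tested genes, with a median log2 fold change of -0.29. The 3 lower genes with the smallest adjusted p were Mnat1 (-0.79, edgeR adjusted p = 0.00571) and Ccnh (-0.42, 0.00910), which with CDK7 form the CDK-activating kinase, and E2f1 (-0.73, 0.0105), which encodes an activating E2F. Cdk7 itself had -0.15 (edgeR adjusted p = 0.121).

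The 4 higher genes of that list were Cdkn1a, Rbl2, Cdkn2b and Cdkn1c. Cdkn1a, which encodes p21, rose from 111 ± 26.5 to 216 ± 28.6 CPM (n = 4 each, SD; log2 fold change 0.97, SE 0.18, edgeR adjusted p = 0.00771). Rbl2, which encodes the RB relative p130, rose by 0.71 (edgeR adjusted p = 0.0115). Rbl1, which encodes the RB relative p107, had -0.51 (edgeR adjusted p = 0.0622), and the log2 ratio of Rb1 to Rbl1 was higher by 0.75 in miR-21-KD tumours with overlap between the groups, a difference that was not tested. The overlap came from miR-21-KD replicate 2 alone (-0.088), without which the difference in this ratio was 1.01. Cdkn2b, which encodes the INK4 protein p15, rose from 1.16 ± 0.314 to 3.25 ± 1.12 CPM (log2 fold change 1.48, edgeR adjusted p = 0.0134). Cdkn1c, which encodes p57, had 1.33, 0.878, 0.473 and 0.736 CPM in VC and 11.07, 1.41, 3.41 and 3.84 CPM in miR-21-KD tumours, so miR-21-KD replicate 1 stood far above the others. Its log2 fold change was 2.51 (SE 0.63, edgeR adjusted p = 0.0171), it was 1.74 without that tumour (0.0302), and the call was lost without VC replicate 3 (0.0527). With the listed genes, the INK4 inhibitors thus comprised Cdkn2c, which fell, Cdkn2b, which rose, and Cdkn2a and Cdkn2d (log2 fold change -0.35, edgeR adjusted p = 0.117), which did not pass. Cdkn2d passed without VC replicate 4 (adjusted p = 0.0458).

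**Figure D4:**
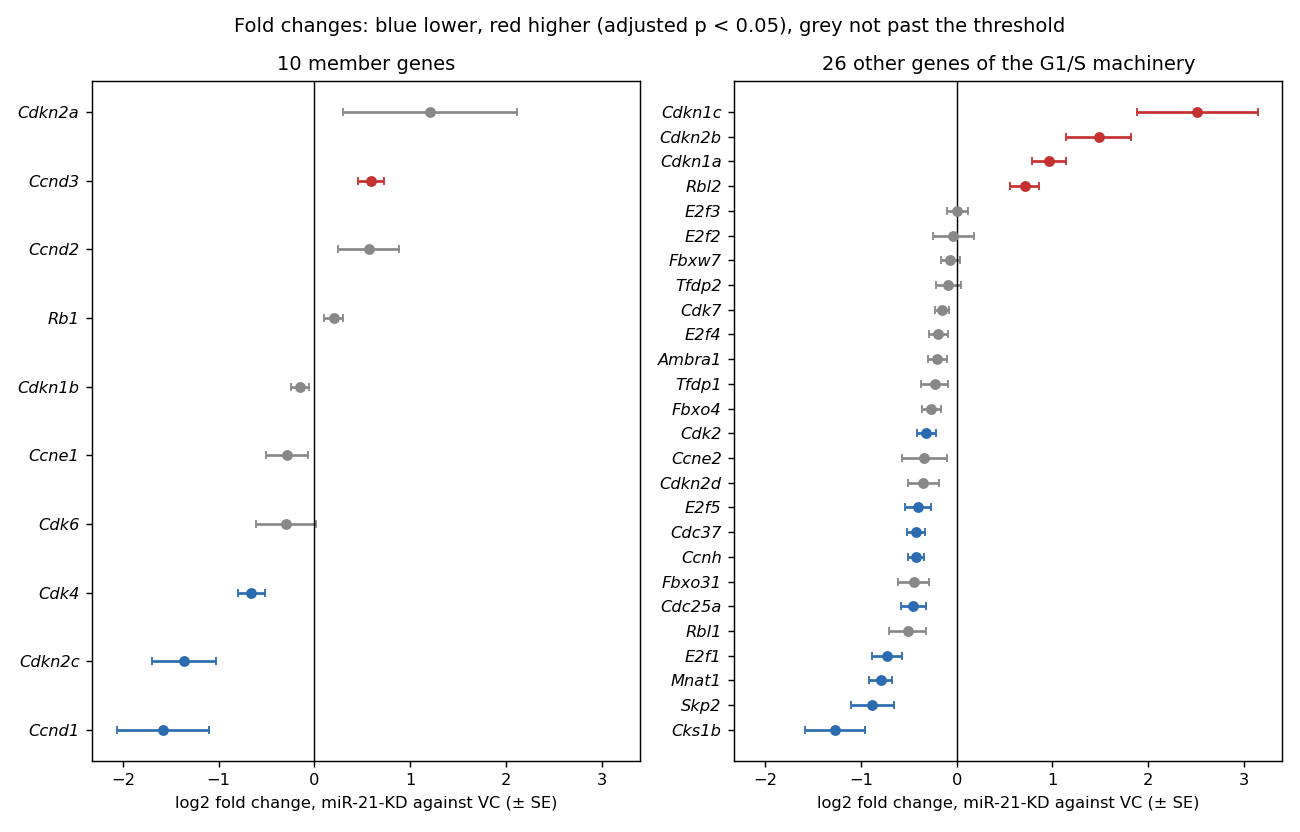
Log2 fold changes of miR-21-KD against VC with their SEs (horizontal axes) for the 10 genes (left) and 26 other genes of the G1/S machinery (right), sorted by size. Of the 10 genes, 3 are blue (lower), 1 is red (higher) and 6 are grey (not past the threshold), against 9, 4 and 13 on the right.

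Genes that E2F factors switch on for S phase were lower in 26 of 28 cases, beside 19.5% lower over all tested genes, and 0 were higher by edgeR at either the adjusted or the unadjusted threshold or by any other tool (median log2 fold change -0.93). The smallest adjusted p values were those of Slbp (-0.56, edgeR adjusted p = 0.00750), which binds histone mRNA, Tyms (-0.93, 0.00777), which makes thymidylate, and Gins2 (-0.86, 0.00850), a part of the replicative helicase. Mitosis genes were lower in 11 of 12 cases, against the same 19.5%, and higher in 0 by the same counts, with a median of -1.28, and led by Aurkb (-1.32, edgeR adjusted p = 0.00790), Ccnb2 (-1.33, 0.00876) and Birc5 (-1.38, 0.00988). The count of lower E2F targets fell to 15, 14, 16, 15 and 14 without VC replicate 2, VC replicate 3, miR-21-KD replicate 1, miR-21-KD replicate 3 and miR-21-KD replicate 4, and that of the other G1/S genes to 5 without VC replicate 3, miR-21-KD replicate 3 or miR-21-KD replicate 4. Over all tested genes the number lower, 2800 with every tumour, was 1588, 1487, 1975, 1768 and 1612 without those same 5 tumours.

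The tumours that were high in Ccnd1 were also high in mitosis genes. The summed level of the 12 mitosis genes was 2185, 2299, 2344 and 1666 CPM in VC and 561, 1638, 791 and 660 CPM in miR-21-KD replicates 1 to 4. As with Ccnd1, VC replicate 4 was the lowest of its group and miR-21-KD replicate 2 the highest. The ratio of the group means was 0.430 for this sum and 0.334, 0.388 and 0.634 for Ccnd1, Cdkn2c and Cdk4. Their difference from the mitosis genes was not tested.

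Of 16 known regulators of D cyclin and p27 transcription and their upstream receptors, 0 were lower by edgeR and 5 were higher, beside 19.6% higher over all tested genes, with a median log2 fold change of 0.26. Stat5b (0.48, edgeR adjusted p = 0.00700), Esr1 (0.90, 0.0126), which encodes the oestrogen receptor, and Rela (0.30, 0.0133), an NF-kB subunit, had the smallest adjusted p, and Egfr and Lef1 were the other two. Without VC replicate 3 the count was 3, the calls of Egfr (adjusted p = 0.0569) and Lef1 (0.105) being lost. The call of Lef1 was also lost without VC replicate 1 (adjusted p = 0.0709), VC replicate 2 (0.101), miR-21-KD replicate 1 (0.0936) or miR-21-KD replicate 4 (0.103). Ctnnb1, which encodes beta-catenin, had -0.31 (edgeR adjusted p = 0.0559) and was the 1 regulator that was lower at an unadjusted p under 0.05, by DESeq2, by limma-voom with or without quality weights, after scaling by library size alone, and without VC replicate 4.

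Markers of other cells moved with these results. Ptprc (CD45), carried by all leukocytes, rose from 189 ± 68.2 to 375 ± 75.6 CPM (n = 4 each, SD; log2 fold change 0.99, edgeR adjusted p = 0.0180). All 6 macrophage and monocyte markers, 5 of 7 T cell markers, 4 of 5 fibroblast markers and all 4 adipocyte markers were higher past the threshold, with 2 of 4 NK cell, 1 of 4 dendritic cell and 1 of 4 endothelial markers, beside 19.6% higher over all tested genes. None of the 4 tested neutrophil markers was called by edgeR (2 had an unadjusted p under 0.05), and the ratio of the summed group means was 1.12 for neutrophils and 1.28 for endothelial cells. The summed macrophage level was 2230 to 3607 CPM in VC and 4646 to 7369 CPM in miR-21-KD tumours, that of T cells 42.4 to 157 and 135 to 277 CPM, and that of fibroblasts 2938 to 7835 and 10265 to 22743 CPM. Adipocyte markers, with the highest ratio of group means (6.07), summed to 14.3 to 69.5 and 112 to 370.0 CPM, NK cell markers to 7.74 to 34.8 and 30.2 to 58.9 CPM, and dendritic cell markers to 18.8 to 33.3 and 41.1 to 81.7 CPM. No marker in these 6 lists was at 0 in every tumour. Their part in the results for the 10 genes was not tested. The 4 B cell markers summed to 140.6 CPM in VC replicate 4 and to at most 4.94 CPM in the other VC tumours. This tumour also had the highest Ccnd2, Ccnd3, Cdkn2a and Ccne1 of its group. It was likewise the highest VC tumour for T cell (157 CPM), NK cell (34.8) and dendritic cell (33.3) markers and for Ptprc (279.6). B cell markers summed to 60.4 CPM in miR-21-KD replicate 4 and to 8.52 to 13.1 CPM in the others of that group. That tumour had the highest Ccnd3 and Cdkn2a among miR-21-KD tumours. Ccnd2 (115 CPM) and Ccne1 were highest in miR-21-KD replicate 1, with a B cell sum of 13.1 CPM. Replicate 1 was the highest of its group for T cell (277 CPM), NK cell (58.9) and dendritic cell (81.7) markers and for Ptprc (481.7). The part of any of these cells was not tested.

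Set against Ptprc within each tumour, Ccnd2 was not higher in miR-21-KD tumours. The log2 ratio of Ccnd2 to Ptprc CPM was -1.88, -2.0, -1.56 and -1.47 in VC and -2.06, -2.07, -2.09 and -2.18 in miR-21-KD tumours, so every miR-21-KD value was lower, by 0.37 on average. For Ccnd3 the same ratio, added after the data were seen, differed by -0.44, and the groups overlapped.

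The carcinoma markers did not move as 1 group. Of 6 epithelial markers, Krt18 was lower (log2 fold change -1.15, edgeR adjusted p = 0.0374), Krt8 had -0.88 (0.0870), and Epcam, Krt14, Krt5 and Cdh1 were higher by 1.52 to 3.08. Their sum was 1279 to 2202 CPM in VC and 850 to 1544 CPM in miR-21-KD tumours, and none was at 0 in every tumour. The mean of their log2 levels counts each marker alike and is not a measure of carcinoma content. Krt14 and Krt5 (means of 7.10 and 11.6 CPM in VC) weigh as much in it as Krt8 and Krt18 (808 and 1022 CPM). Against the mean log2 level of all 6 markers, Ccnd1 was lower by 3.06 on the log2 scale in miR-21-KD tumours, where replicate 2 (3.68) lay above VC replicate 1 (3.63). Against Krt8 and Krt18, the simple keratins that were the most abundant of these markers and were chosen after the data were seen, it was lower by 0.70, with miR-21-KD replicate 2 (0.70) above VC replicate 1 (0.50). Against all 6 markers Cdkn2c was lower by 2.67 with no overlap between groups, and Cdk4 was lower by 1.89 with overlap, both ratios being added after the data were seen. Against Krt8 and Krt18, the 2 markers of the 6 with negative log2 fold changes, Cdkn2c was lower by 0.31 with no overlap, and Cdk4 was higher by 0.47 with overlap (0.21 without miR-21-KD replicate 1). Tumours of the same number were also compared, although no label marks them as pairs. The ratio of Ccnd1 to Krt8 and Krt18, to all 6 markers and to Ccnd2 was lower in miR-21-KD in 4 of 4 pairs. That of Cdk4 to Krt8 and Krt18 was higher in 4 of 4, and that of Cdk4 to all 6 markers was lower in 4 of 4. The direction for Cdk4 thus differed between the whole library or all 6 markers, against which it was lower, and that pair of keratins, and none of these ratios was tested.

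**Figure D5:**
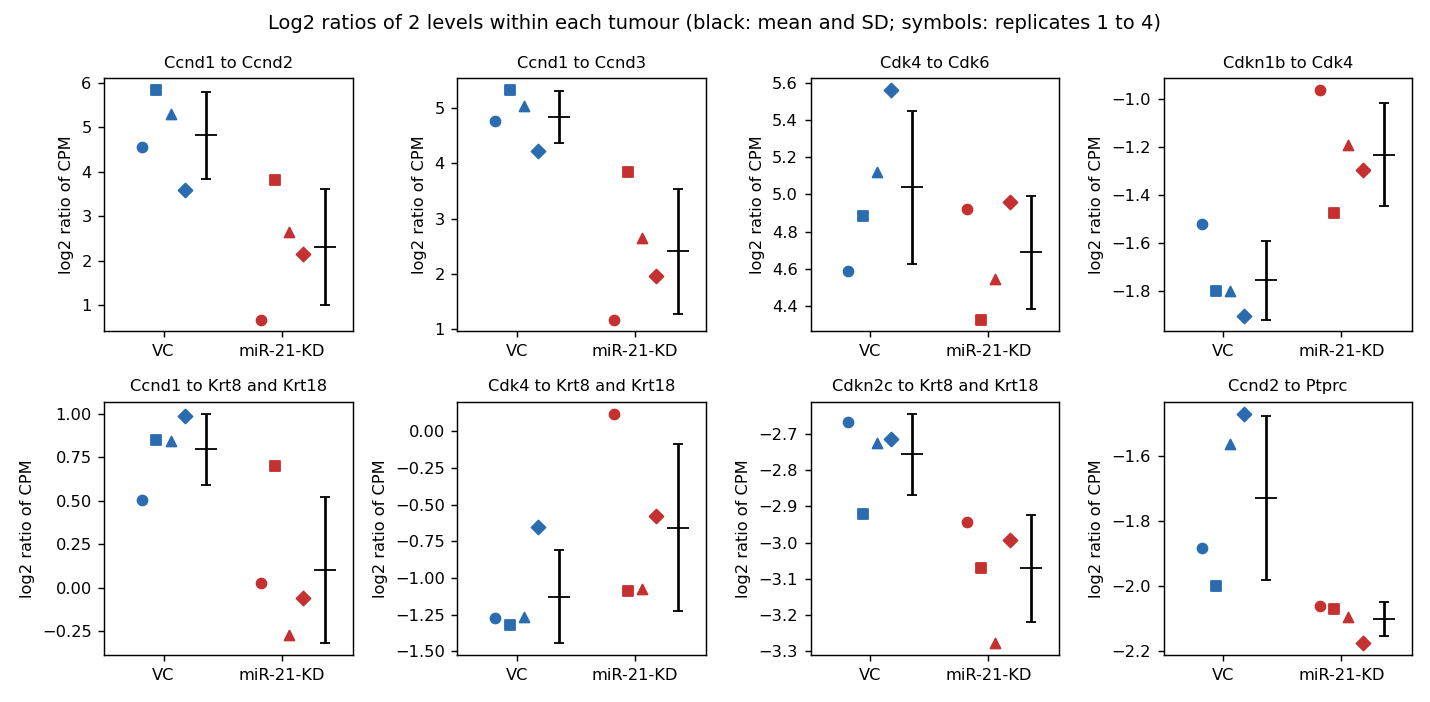
Log2 ratios of CPM (vertical axes, each with its own scale) within each of the 4 VC (blue) and 4 miR-21-KD (red) tumours, with the mean and SD in black. The ratios of Ccnd1 to Ccnd3 and of Cdkn2c to Krt8 and Krt18 are lower in every miR-21-KD tumour than in any VC tumour, and that of Cdkn1b to Cdk4 is higher.

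The genes whose log2 CPM followed that of Cdk4 most closely over the 8 tumours, out of 12874 compared, were Tmem128 (Pearson r = 0.999), Elp5, Eif1ax, Tmem231 and Psma6 (0.997 each). For Ccnd3 they were H2-Q6 (0.986), Gpsm3 (0.985), Hcst (0.984), Tmem179b (0.981) and Taldo1 (0.981). These correlations span both groups, so that they hold the difference between groups as well as the spread within them, and all points share their libraries with the gene compared.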

How the data were processed

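For 8 whole tumours (total RNA), the authors deposited unnormalized read counts on Entrez genes, made with Subread and featureCounts on mm10 per the submitters' notes. Versions and strand setting were not given in the sources used here. Symbols came from the GRCm38.p6 annotation and matched 25275 of 27179 identifiers. The genes and lists were chosen with earlier results of these data known. Genes were kept by filterByExpr (minimum count 10, minimum total 15), which left 14382, scaled with TMM and tested in R 4.3.3 with the robust quasi-likelihood test of edgeR 4.0.16. The lists were checked as counts only. Ratios are log2 of CPM plus 0.5. Exon lengths are the union over protein-coding transcripts (GENCODE). The test was run on simulated data beforehand. Text names all 10 genes, the 3 genes of smallest adjusted p per list and direction, the 5 genes most like Cdk4 and Ccnd3, Ptprc, Mir21a and Vmp1. The 6 epithelial markers are named as the whole of their list. Other genes named (Cdkn1c, Cdkn2d, Cdk7, Ccne2, Rbl1, Myc, Ctnnb1, Egfr, Lef1) were chosen after their values were seen. Alternatives were DESeq2 1.42.0, limma 3.58.1 (voom, with and without sample quality weights), other scalings and filters, a replicate block, and each tumour left out. Tumours carry the numbers 1 to 4 in each group. Deviations of same-numbered tumours from their group means correlated by 0.272, 0.421, 0.175 and 0.376 (mean of other combinations -0.105). Deviations cancel within a group, so the mean of the other combinations follows largely from the matched values and gives no separate support. The labels do not say that the numbers mark pairs. The main test had no block, and the numbers served as pairs only in the replicate block and in the counts of ratios by pair. No pair of tumours in a group agreed within sampling noise (chi-square per degree of freedom 13.3 to 75.4).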

Additional observations from a re-analysis of the deposited data

Results flagged for a closer look

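Rb1 in the miR-21-KD group had a tumour far from the others. Replicate 2 had 54.2 CPM against 65.3 to 66.6 CPM in the other miR-21-KD tumours, and its gap to the nearest of them was 0.897 of the range of the group (Dixon's test). Chance alone marks about 1 in 20 groups, and 20 groups were examined.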

How the results depend on the processing

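With all 8 tumours, the calls of Ccnd1, Ccnd3, Cdk4 and Cdkn2c held under every other scaling, filter, tool and block. Under voom with sample quality weights Ccnd2 (0.78, adjusted p = 0.0239), Cdkn2a (3.40, 0.00567) and Rb1 (0.27, 0.0281) also passed, giving 4 higher genes of the 10, and 17 lower genes of the other G1/S machinery and 8 higher regulators passed, with 4138 lower and 4041 higher genes in all. Ctnnb1 made 1 lower regulator under library size alone, DESeq2, voom, and voom with quality weights. The replicate block changed no call among the 10 genes (Ccnd1 -1.84, adjusted p = 0.00767) and gave 3176 lower and 3309 higher genes in all. Leaving out each tumour gave 2 to 3 lower and 1 to 3 higher of the 10 genes (3 without VC replicate 4, 2 without miR-21-KD replicate 2), 5 to 13 lower of the other G1/S machinery, 14 to 28 lower E2F targets, 8 to 12 lower mitosis genes, 0 to 1 lower and 3 to 6 higher regulators, and 1487 to 3550 lower and 1449 to 3290 higher of all tested genes. All 14 ratios moved by less than 1 SD (pooled over the groups) without a pseudocount or with any tumour left out, although the difference for Ccne1 to Ccne2, near 0, changed sign. Cdkn2a had no value with at least 10 counts in every tumour. Depth limits Cdkn2a, with at most 24 counts in a tumour.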
